A study of Mus musculus with 5 samples.

Results

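The subject is a set of 10 genes that encode enzymes and regulators of the defence against superoxide, peroxides and oxidised thiols, measured by RNA sequencing in hearts of diabetic and non-diabetic mice. The genes were chosen by symbol: Sod1, Sod2, Cat, Gpx1, Gpx3, Gpx4, Prdx3, Txnrd1, Txnip and Hmox1. All 10 were among the 17228 genes of the deposited table, and all 10 were among the 12540 genes with enough counts to be tested. The study examined how type 2 diabetes alters the heart. It comprised 5 poly-A libraries from hearts taken at 6 months of age, 2 wild type (WT, non-diabetic) and 3 homozygous for the db allele of the leptin receptor gene Lepr (db/db, diabetic). The WT group was 1 female and 1 male, and the db/db group was 2 females and 1 male. All samples carry the strain label C57BL, the KsJ background is named only in the db/db genotype, and the housing text speaks of males although 3 samples are labelled female. Strain background and the db allele therefore cannot be told apart, and no label says that the libraries are from different animals. The p-values therefore speak to the spread between the samples at hand, which may be technical.

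Superoxide is made mainly by the respiratory chain and by NADPH oxidases. Superoxide dismutases turn it into hydrogen peroxide, which catalase, glutathione peroxidases and peroxiredoxins break down. Peroxiredoxins are recharged by thioredoxin, which thioredoxin reductase returns to its reduced form with NADPH, and TXNIP binds reduced thioredoxin and also limits glucose uptake. Txnip is known as one of the transcripts most responsive to glucose, through the transcription factors MondoA and ChREBP.

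Gpx1, Gpx3, Gpx4 and Txnrd1 encode selenoproteins, in which a TGA codon inside the reading frame is read as selenocysteine, the residue at the active site. The coding sequence around that codon is shown for these 4 of the 10 genes, from GENCODE M21 on GRCm38, with the TGA in capitals and up to 21 bases on each side; the Txnrd1 stretch ends at its stop codon. The codons lie on the plus strand in coding exons, at chr9:108339451-108339453 (Gpx1), chr11:54907256-54907258 (Gpx3), chr10:80054737-80054739 (Gpx4) and chr10:82896037-82896039 (Txnrd1).
Gpx1: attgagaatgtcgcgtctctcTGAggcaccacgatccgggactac
Gpx3: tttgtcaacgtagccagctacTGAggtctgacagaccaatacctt
Gpx4: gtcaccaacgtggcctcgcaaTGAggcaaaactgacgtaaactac
Txnrd1: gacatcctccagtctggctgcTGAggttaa

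Txnip was the member called for the genotype by sex interaction, as described below. That test rests on a single library in every arm but the db/db females. The promoter of Txnip is shown because it holds a rare repeated motif. The stretch is the 250 bases before the RefSeq start site at chr3:96557707-96557956, plus strand, GRCm38.p6. Capitals mark 2 copies of CACGAG separated by 5 bases, whose first base lies at -85 and last base at -69 from the start site.
Txnip: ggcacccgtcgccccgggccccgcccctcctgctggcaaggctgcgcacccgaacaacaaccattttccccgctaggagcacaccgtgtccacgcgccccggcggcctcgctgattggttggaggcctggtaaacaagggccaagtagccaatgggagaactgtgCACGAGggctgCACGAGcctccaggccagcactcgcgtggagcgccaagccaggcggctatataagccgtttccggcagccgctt

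The pair was searched on both strands as 2 copies of CACGNG, separated by 5 bases, in windows from 250 bases before to 50 after the start site. It was found in 16 of 32851 RefSeq promoter windows (0.0487%), and this search was set up knowing the Txnip sequence. Txnip was the only 1 of the 9 genes with a window to hold it; Hmox1 was not among the promoters matched. The core of the antioxidant response element, the site named for the stress factor NRF2, was searched as TGACNNNGC. It occurred in 12.4% of all windows and, in the set, at -56 in Sod1 and at -92 in a Txnrd1 window. A match is a run of letters only, and binding was not measured.

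The libraries held 8356099 to 10381326 counts and 14660 to 15114 detected genes. Lepr, counted over all isoforms and without sight of the mutation, had 37 and 13.9 counts in WT and 3 to 7 in db/db. Ddx3y, which is Y-linked, matched the sex labels, at 453 and 525 counts in males and 0 to 1 in females. For the heart label, 8 of 8 ventricular cardiomyocyte markers were present at a summed level of 81433 and 88511 CPM (counts scaled to the library size) in WT and 95741 to 117655 CPM in db/db. The lowest sum was that of the WT female and the highest that of the db/db male. Single markers ran from -0.13 (Pln) to 0.62 (Tnnt2, edgeR adjusted p = 0.199) in log2 fold change of db/db against WT. In bulk tissue, fewer cells of a type and less RNA per cell cannot be told apart. There were 2 libraries that stood apart in how they read short transcripts, with relatively few such counts in the WT female and many in the male db/db library, which bears on Sod1, Gpx4 and Gpx1 as given below.

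Between genes, levels were compared per transcript length in TPM, the transcript abundance scaled to length and library, as the authors deposited it. Together the 10 genes took 4316 to 4973 TPM per library. Gpx4, which reduces lipid peroxides in membranes, supplied 46.8% to 55.2% of that sum in each library. The order of mean level in WT was Gpx4, Sod1, Gpx3, Sod2, Prdx3, Txnip, Gpx1, Cat, Txnrd1 and Hmox1, from 2314 ± 365 TPM (SD, n = 2) for Gpx4 to 10.4 ± 2.8 TPM for Hmox1. The WT ranges of neighbours in that order did not overlap, with 2 libraries behind each range. In db/db the order was the same except that Txnip took the fourth place, at 287 ± 110 TPM (SD, n = 3) against 191 ± 27.9 TPM (SD, n = 2) in WT. The db/db ranges of Txnip overlapped those of its neighbours Gpx3 and Sod2, and Sod2 with Prdx3, Prdx3 with Gpx1, and Txnrd1 with Hmox1 overlapped too.

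**Figure D1:**
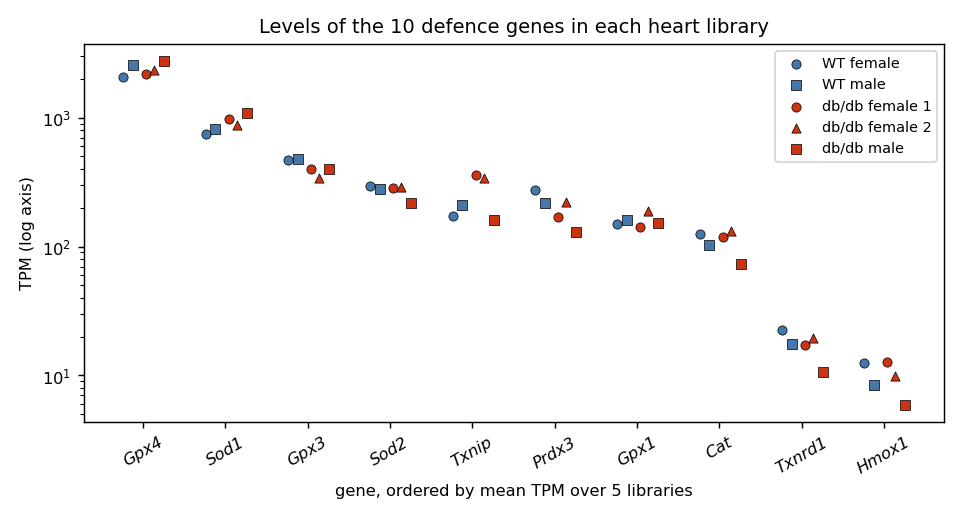
Level of each of the 10 genes in each heart library, in TPM on a log axis, with genes ordered by their mean over the 5 libraries. Points are single libraries, blue for WT and red for db/db, squares for males. Gpx4 lies at 2056 TPM or more in every library and Hmox1 at 12.8 TPM or less.

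Whether these defences differ in the diabetic heart was read from db/db against WT. None of the 10 genes was called: 0 had an edgeR adjusted p under 0.05 (quasi-likelihood F test, Benjamini-Hochberg over 12540 genes), against 1.03% of all tested genes (129, of which 84 higher and 45 lower). At an unadjusted p under 0.05 there were 2 of 10, Sod1 and Txnip, beside 12.9% of all tested genes (1623). DESeq2 called 1 of 10, Txnip, where it called 1.45% of all genes. The median log2 fold change of the 10 was 0.17 and 7 were positive, beside a median of -0.01 over all genes. With limma on log2(TPM + 1) the members' median was -0.13 and 4 were positive, where the median of all genes was -0.24. An exact permutation test of 2 against 3 libraries cannot give a p under 0.1, so the tests rest on the spread shared across genes.

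Sod1, the copper and zinc superoxide dismutase of the cytosol (chromosome 16, 90220742 to 90226324), was the member with the smallest p. Its level was 745 TPM in the WT female and 813 TPM in the WT male, against 972 and 882 TPM in the db/db females and 1081 TPM in the db/db male. All 3 db/db libraries lay above both WT libraries in TPM, and so they did in scaled counts, at 388 to 579 CPM against 263 and 341 CPM. In scaled counts it was the only member whose groups did not overlap. The share of all genes without overlap is not given here. Only 10 splits of 5 libraries into 2 and 3 exist, so separation alone carries little weight. The same holds for the genes and ratios called without overlap below. The WT mean of Sod1 was 302 ± 54.9 CPM (SD, n = 2) and the db/db mean 465 ± 101 CPM (SD, n = 3). The log2 fold change was 0.62 (SE 0.20, edgeR unadjusted p = 0.0085, adjusted p = 0.219). Set against the WT library of the same sex, the db/db females differed by 0.70 and 0.56 and the male by 0.76 in log2 CPM. Over 20 alternatives the log2 fold change ran from 0.26 to 0.82 and stayed positive. It was called in 2 of them: with sex as a covariate (0.69, edgeR adjusted p = 0.0028, 6.63% of all genes called) and in females alone against the single WT female (0.64, adjusted p = 0.0003, 7.67% of all genes called).

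Sod1 is a short transcript, with 561 bases implied by the deposited counts and FPKM against a median of 2769 bases for tested genes. Genes of its length and GC content deviated by -0.30 log2 units in the WT female, by 0.28 in the db/db male, and by 0.00 to 0.01 in the other libraries. With an offset that removes this trend the log2 fold change of Sod1 was 0.37, and 0.39 with a sex term beside the offset (edgeR adjusted p = 0.0547). In the comparison of db/db females with the WT male, which leaves out both ends of the trend, its value was 0.26. That comparison sets females against a male, so genotype, sex and the trend cannot be told apart in it.

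Sod2, the manganese superoxide dismutase of the mitochondrial matrix, was at 296 and 279 TPM in WT and at 282, 291 and 219 TPM in db/db. The groups overlapped and the db/db male was the lowest library in TPM. In scaled counts the WT female was the lowest, at 693 CPM against 778 CPM in the db/db male. Its log2 fold change was 0.15 in scaled counts (edgeR adjusted p = 0.697) and turned negative, -0.13, on the log2(TPM + 1) scale. The deposited span of Sod2 on chromosome 17, 12992580 to 13455251, covers 462672 bases and 21 other RefSeq genes, whereas RefSeq gives the gene 10281 bases. Whether reads of other genes entered its counts was not tested. The ratio of Sod1 to Sod2, chosen after the values were seen and so not tested, was 2.52 and 2.91 in WT and 3.44, 3.03 and 4.93 in db/db, with the highest ratio in the db/db male.

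Among the enzymes that remove peroxides, Gpx4 was the most abundant (chromosome 10, 80047166 to 80056439). It stood at 2056 TPM in the WT female and 2573 TPM in the WT male, and at 2171, 2349 and 2743 TPM in the db/db females and male. The males were higher than the females of their genotype, and the genotypes overlapped. In scaled counts the log2 fold change of db/db against WT was 0.35 (SE 0.23, edgeR adjusted p = 0.527). Against the WT library of the same sex the 3 db/db libraries differed by 0.40, 0.51 and 0.44 in log2 CPM. It was called as higher in females alone (0.46), against the single WT female, and with a sex term (0.45, edgeR adjusted p = 0.0184). With the sex term 6.63% of all genes were called. With 872 bases it shares the length trend of Sod1, which for genes of its kind was -0.33 (WT female) and 0.32 (db/db male). The log2 fold change was 0.07 with the length and GC offset, and 0.11 with that offset and a sex term (edgeR adjusted p = 0.595). It was -0.12 in db/db females against the WT male, where sex differed as well as genotype.

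Gpx1, the glutathione peroxidase of cytosol and mitochondria, was at 149 and 160 TPM in WT and at 141, 189 and 153 TPM in db/db. The groups overlapped, with the highest value in db/db female 2. Its log2 fold change was 0.34 (edgeR adjusted p = 0.418). This transcript has 958 bases, and the offset brought the value to 0.11. In females alone it was called (0.47, edgeR adjusted p = 0.0312).

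Gpx3, the secreted glutathione peroxidase of plasma, was at 465 and 476 TPM in WT and at 399, 342 and 398 TPM in db/db. In TPM all 3 db/db libraries were lower than both WT libraries. In scaled counts the groups overlapped, at 418 and 511 CPM in WT and 383 to 542 CPM in db/db, and the log2 fold change was -0.02 (edgeR adjusted p = 0.973). Its sign turned to 0.03 with sex as a covariate. The lower TPM stands beside the median shift of all genes on that scale, given above.

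Cat, the peroxisomal catalase, was at 125 and 103 TPM in WT and at 118, 131 and 72.8 TPM in db/db. In TPM the db/db females lay within or just above the WT range. In scaled counts both lay above it, at 229 and 254 CPM against 194 and 191 CPM in WT. The db/db male was the lowest library on both scales. The log2 fold change was 0.18 in scaled counts (edgeR adjusted p = 0.694) and -0.13 on the log2(TPM + 1) scale. Prdx3, the mitochondrial peroxiredoxin, was at 273 and 218 TPM in WT and at 171, 221 and 129 TPM in db/db. In TPM db/db female 2 lay inside the WT range and the other 2 db/db libraries below it. In scaled counts db/db female 2 lay above both WT libraries, at 236 CPM against 233 and 222 CPM. The log2 fold change of Prdx3 was -0.22 (SE 0.17, edgeR adjusted p = 0.596) and ran from -0.52 to -0.08 over the alternatives, negative in each and called in none.

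The thioredoxin system was represented by its inhibitor Txnip and its reductase Txnrd1. Txnip (chromosome 3, 96557957 to 96561862) stood at 171 TPM in the WT female and 211 TPM in the WT male. It stood at 358 and 342 TPM in the db/db females and at 160 TPM in the db/db male. Both db/db females were far above every other library, and in TPM the db/db male was below both WT libraries, while in scaled counts it lay between them. The genotypes overlapped on both scales.

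In scaled counts the WT mean of Txnip was 361 ± 97.6 CPM (SD, n = 2) and the db/db mean 636 ± 195 CPM (SD, n = 3). The log2 fold change was 0.82 (SE 0.27, edgeR unadjusted p = 0.0122, adjusted p = 0.249), and DESeq2 gave 0.83 (adjusted p = 0.0321). Against the WT library of the same sex it was 1.39 and 1.32 higher in the db/db females and -0.06 in the db/db male, in log2 CPM. The difference between the sexes passed its own test: the db/db effect was -1.42 log2 units in males minus females (SE 0.21, edgeR interaction adjusted p = 2.32e-08). DESeq2 gave -1.43 (adjusted p = 5.76e-06) and edgeR with the length and GC offset -1.36 (adjusted p = 0.0071). Txnip was 1 of 10 members called for the interaction in each of these 3 fits, where 1.16%, 0.0366% and 0.191% of all genes were called.

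The interaction leaves 1 residual degree of freedom, from the 2 db/db females, with single libraries for the WT female, the WT male and the db/db male. Its p-values therefore rest mostly on the spread shared across genes, and hardly on the spread of Txnip itself. Over 20 alternatives the log2 fold change of Txnip for genotype ran from 0.50 to 1.36, positive in each, and it was called in 4 of them. DESeq2, given above, is 1 of these, and the other 3 leave out the db/db male. In females alone the log2 fold change of Txnip was 1.36, with the lone WT female assumed to vary like the db/db females. Without the db/db male it was 1.05 (edgeR adjusted p = 0.0016), where 1.92% of all genes were called. In db/db females against the WT male it was 0.80 (adjusted p = 2e-06), where 3.38% were called. The value missed the threshold with sex as a covariate (0.73, edgeR adjusted p = 0.456), without the WT female (0.57, adjusted p = 0.952) and with limma on log2(TPM + 1) (0.50, adjusted p = 0.366). With 2716 bases Txnip lies near the median length, and genes of its kind deviated by -0.07 to 0.03 in the 5 libraries.

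**Figure D2:**
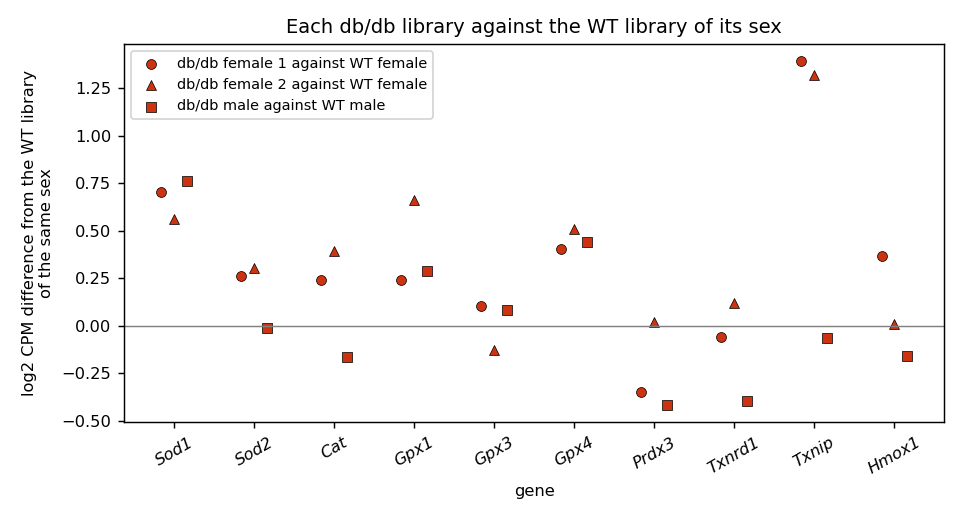
Difference of each db/db library from the WT library of its sex, in log2 CPM, for the 10 genes. Circles and triangles are the db/db females and squares the db/db male. For Txnip the females lie at 1.39 and 1.32 and the male at -0.06, whereas for Sod1 all 3 lie between 0.56 and 0.76.

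Some markers of other cell types were called for the same interaction, where 1.16% of all genes were called. Of the ventricular cardiomyocyte markers 0 of 8 were called for it, and of the macrophage markers 0 of 7. Of the fibroblast markers, 2 of 5 were called for the interaction, Col1a1 and Col3a1, both with negative values like Txnip (-1.01 for Col1a1). Pdgfra, Dcn and Tcf21, not called, were negative as well. The summed fibroblast level was 827 and 982 CPM in WT, 1004 and 1087 CPM in the db/db females and 816 CPM in the db/db male. Of the red blood cell markers 5 of 5 were called, with a sum of 3363 CPM in the WT female and 6812 to 9644 CPM in the other 4 libraries. Their interaction values were all negative like that of Txnip, from -1.22 (Hbb-bs) to -1.66 (Alas2). In scaled counts the WT female was the lowest library for Txnip too, at 292 CPM. Of the endothelial markers 1 of 5 was called (Kdr, -0.94). The uncalled Pecam1, Cdh5 and Tie1 were negative too and Egfl7 positive. Of the smooth muscle and pericyte markers 1 of 5 was called (Acta2, 0.84). The uncalled Myh11 and Tagln were positive too and Pdgfrb and Rgs5 negative. Fat cell markers summed to 0.44 to 3.80 CPM, with Adipoq, Plin1, Lep and Retn at 0 in a library or more. The db/db male also stood apart in atrial markers: Sln had 12 counts there and 0 in the other 4 libraries, and Myl7 had 38 counts there and 2 to 8 in the others. Neither gene was tested, and the summed atrial level, mostly Nppa, was 405 and 503 CPM in WT and 246 to 364 CPM in db/db. The part of these cells in the Txnip difference was not tested. Txnip is also overlapped on the other strand by the RefSeq gene Gm15441, and no source used here says whether counting used strand, so their reads cannot be told apart.

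Txnrd1, the cytosolic thioredoxin reductase, was at 22.5 and 17.6 TPM in WT and at 17.2, 19.6 and 10.6 TPM in db/db. The db/db male was the lowest library, and the groups overlapped. Its log2 fold change was -0.07 (edgeR adjusted p = 0.899), and 0.04 in females alone. The ratio of Txnip to Txnrd1, formed after the values were seen and not tested, was 7.63 and 12.0 in WT and 20.9, 17.5 and 15.0 in db/db, without overlap. Txn1, which encodes the cytosolic thioredoxin that TXNIP binds, was at 62.9 and 66.1 CPM in WT and 63.7 to 70.6 CPM in db/db, a log2 fold change of 0.06 (adjusted p = 0.878). Against Txn1 in TPM, Txnip stood at 1.65 and 2.31 in WT and at 4.26, 3.67 and 2.16 in db/db, where the db/db male lay inside the WT range.

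Of the other alpha-arrestins, the family to which TXNIP belongs, Arrdc2 rose in db/db hearts. It was at 6.13 and 6.21 CPM in WT and at 50.3, 30.3 and 56.3 CPM in db/db, high in all 3 db/db libraries including the male. Its log2 fold change was 2.88 (SE 0.27, edgeR adjusted p = 0.0008), and it was called in 20 of 20 alternatives. Its interaction with sex was 0.46 (adjusted p = 0.78). Arrdc4, which like Txnip is a known target of MondoA, was at 15.1 and 21.3 CPM in WT and 14.5 to 20.2 CPM in db/db, with a log2 fold change of -0.12 (adjusted p = 0.842). Its interaction with sex was -0.69 and missed the threshold (edgeR adjusted p = 0.503), from same-sex differences of -0.06 and 0.42 in the females and -0.49 in the male. Its promoter window held CACGTG once, a motif found in 7.15% of windows, and not the pair printed above for Txnip.

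**Figure D3:**
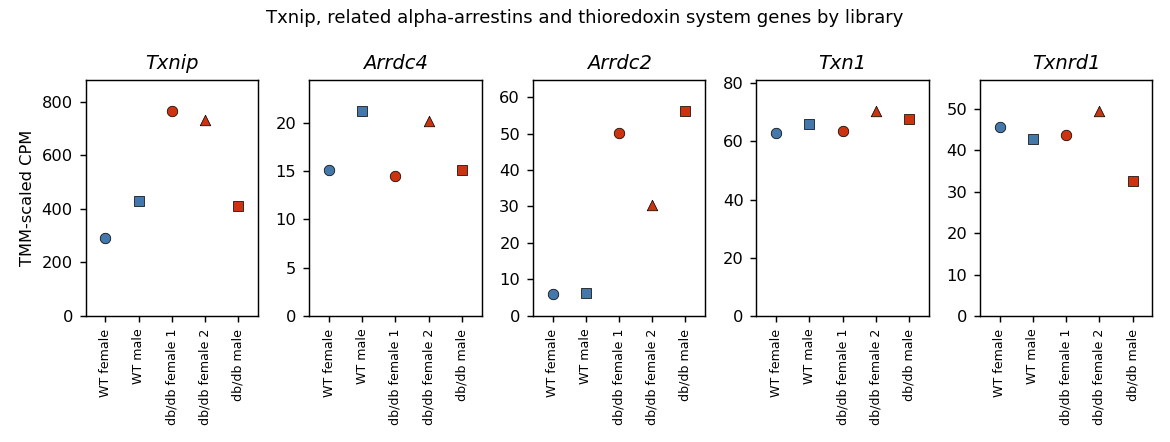
Levels of Txnip, the alpha-arrestins Arrdc4 and Arrdc2, thioredoxin (Txn1) and thioredoxin reductase (Txnrd1) in TMM-scaled CPM by library, each panel from 0 on its own scale. Points are single libraries, blue for WT and red for db/db. Txnip stands at 766 and 730 CPM in the db/db females and at 292 to 430 CPM in the other 3 libraries, and Arrdc2 is high in all 3 db/db libraries.

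Hmox1, the inducible haem oxygenase that breaks haem down to biliverdin, iron and carbon monoxide, was the least abundant member. Its level was 12.4 and 8.39 TPM in WT and 12.8, 9.99 and 5.91 TPM in db/db, from 62 to 147 counts per library. The db/db male was the lowest and the groups overlapped. The log2 fold change was 0.16 (SE 0.25, edgeR adjusted p = 0.815) and turned to -0.14 on the log2(TPM + 1) scale. Macrophage markers, of a cell type known to express Hmox1, summed to 195 and 226 CPM in WT and 221 to 232 CPM in db/db, and 0 of 7 were called.

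Between males and females, in a model with genotype, 1 of 10 members was called, where 1.4% of all genes were. Gpx4 was 0.57 log2 units higher in males (SE 0.10, edgeR adjusted p = 0.0227). DESeq2 called 2 of 10, Gpx4 (0.58, adjusted p = 7.18e-05) and Sod1 (0.46, adjusted p = 0.0066), where it called 1.79% of all genes. With the length and GC offset the Gpx4 value was 0.26 (adjusted p = 0.341) and 0 of 10 were called, where 0.255% of all genes were. It also missed the threshold with library totals (0.43, adjusted p = 0.0783) and without db/db female 1 (0.54, adjusted p = 0.0731). Within each genotype the length trend of short transcripts was higher in the male, so sex and this trend moved together.

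Without the WT female, or without the WT male, 4 of 10 were called for sex: Gpx4 and Sod1 as higher and Cat and Txnip as lower in males. In these fits 6.71% and 6.44% of all genes were called. Cat was then -0.51 and -0.50 log2 units in males (edgeR adjusted p = 0.0111 and 0.0221). Txnip was -0.86 in both (adjusted p = 2.37e-07 and 6.62e-07), but 0.55 higher in the male without the db/db male (adjusted p = 0.0373), where only the WT pair told the sexes apart and 1.4% of all genes were called.

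**Figure D4:**
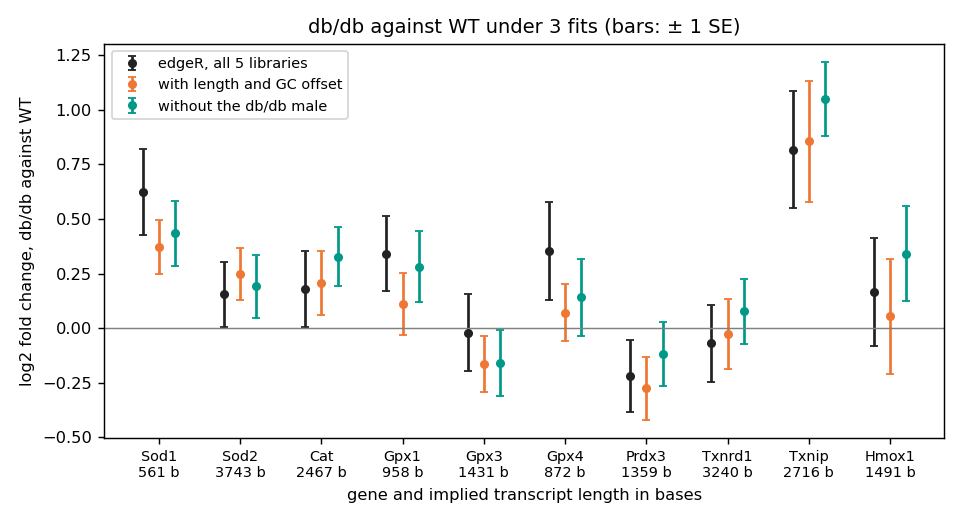
Log2 fold change of db/db against WT for the 10 genes in 3 edgeR fits: all 5 libraries (black), with the length and GC offset (orange) and without the db/db male (green). Bars are 1 SE, and the implied transcript length is under each name. The offset lowers the short transcripts Sod1 (0.62 to 0.37), Gpx1 (0.34 to 0.11) and Gpx4 (0.35 to 0.07), and leaving out the db/db male raises Txnip from 0.82 to 1.05.

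The neighbouring genes of these pathways were read from 13 lists with 86 genes, 85 of them in the table and 82 tested. Of the 72 tested genes outside the set, 1 was called as higher (Arrdc2) and 0 as lower by edgeR, and DESeq2 called 2, Arrdc2 and Nqo1. At an unadjusted p under 0.05 there were 14 of 72, beside the 12.9% of all genes. Their median log2 fold change was 0.16 and 50 were positive, where all genes had a median of -0.01. For these list genes it was -0.02 with library totals and -0.10 on the log2(TPM + 1) scale, with 31 and 19 positive. All genes were shifted down as well in those 2 settings, to medians of -0.19 and -0.24. Correcting each library for length and GC placed the 72 at 0.07 (46 positive) and all genes at -0.01. With sex as a covariate 9 of the 72 were called as higher and 1 as lower, where 6.63% of all genes were called. In females alone 9 and 2 were called, where 7.67% of all genes were.

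By role, 0 of 4 genes of the superoxide dismutase list passed, and Ccs, the chaperone that loads copper into SOD1, had a log2 fold change of 0.56 (edgeR adjusted p = 0.291). Ccs was at 24.9 and 33.0 CPM in WT and at 36.2, 37.7 and 54.3 CPM in db/db, without overlap. It is a short transcript of 967 bases, lowest in the WT female and highest in the db/db male, as was Sod1. Of 7 peroxiredoxin and sulfiredoxin genes 0 passed, and Prdx5 had 0.54 (adjusted p = 0.263), as a short transcript of 601 bases. Of 19 tested NRF2 regulators and targets 0 passed. Nqo1, a quinone reductase and a classic NRF2 target, was at 57.6 and 69.2 CPM in WT and at 91.1, 103 and 89.4 CPM in db/db, without overlap (0.58, SE 0.15, adjusted p = 0.113). Maff, a small Maf partner of NRF2, had 0.67 (adjusted p = 0.211), while Hmox1 and Txnrd1, also on that list, are given above.

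Of 7 genes of haem breakdown and iron storage 0 passed, with Hmox2 and Fth1 at 0.38 each (edgeR adjusted p = 0.332 and 0.39). Of 10 genes of selenoprotein synthesis and other selenoproteins 0 passed. Pstk, a kinase of selenocysteine synthesis, was at 0.51 (edgeR adjusted p = 0.243) and Msrb1 at 0.51 (adjusted p = 0.365). Of 10 tested sources of superoxide and peroxide 0 passed, with xanthine dehydrogenase Xdh at 0.48 (adjusted p = 0.346) and the NADPH oxidase subunit gene Ncf1 at 0.62 (adjusted p = 0.383). Of the 4 genes that supply NADPH to mitochondria 0 passed, and Idh2 had 0.38 (adjusted p = 0.385). Mlxipl, which encodes ChREBP, had -0.75 (adjusted p = 0.262), from 39.0 and 20.3 CPM in WT to 15.4 to 21.3 CPM in db/db, where the WT female stood above all other libraries. Of 5 glutaredoxin and glutathione reductase genes 0 passed for genotype, and Glrx5 was 0.55 higher in males (edgeR adjusted p = 0.0283). With 915 bases Glrx5 is a short transcript like Gpx4, and sex and the length trend moved together. The sex value of Glrx5 with the length and GC offset is not given here.

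The genes with the scaled profile most like that of Sod1 over the 5 libraries were Snrpd2, Paxx and Cidea, at root mean square distances of 0.02, 0.03 and 0.03 log2 CPM, among the 10017 genes that averaged 5 CPM or more. Snrpd2 has an implied length of 400 bases and Paxx and Cidea of 985 and 1078 bases, all short beside the median. For Txnip, added after its values were seen, the nearest were Galnt16, Dynlt1b and Fbln2, at distances of 0.14 log2 CPM each. Their interaction values were -1.08, -1.13 and -1.22, a direction that their likeness to Txnip brings with it, and so they carry no test here.

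The authors' deposited table gave Txnip a log2 fold change of 0.83 with a q-value of 0.0421. For Sod1 the authors' deposited table listed 0.63 with a q-value of 0.079. For the other 8 members the authors' deposited table listed q-values of 0.693 or more.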

How the data were processed

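The data are 5 poly-A RNA libraries of mouse heart. Per the submitters' processing notes, HISAT, Bowtie2, DESeq2 and the build GRCm38.p6 were used, and for the program that counted reads the sources used here give no name. The authors deposited 1 table with estimated counts (expected counts, not normalized), and 91.4% of them were exactly whole. The authors' FPKM values are relative to length and library size, and their deposited TPM values sum to nearly the same total in each library. For the contrast of genotypes the authors deposited a log2 fold change, a p-value and a q-value per gene. After 1 line without a gene was dropped, 17228 genes remained; 23 symbols that had become dates were restored by gene ID, and 17120 IDs matched RefSeq on the same build. Mitochondrially encoded genes were not analysed here.

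Counts were rounded, filtered with edgeR's filterByExpr, scaled by TMM and fitted with edgeR 4.0.16 under R 4.3.3 (robust quasi-likelihood F test, Benjamini-Hochberg adjustment, threshold 0.05). The test of genotype had no covariate and 3 residual degrees of freedom; sex was tested beside genotype, and then their interaction. CPM values are TMM-scaled, log2 CPM has a prior count of 2, and means are given ± SD. Totals of 8356099 to 10381326 counts bound the precision of low genes such as Hmox1. Alternatives were DESeq2 1.42.0, limma-voom (limma 3.58.1), RLE factors, library totals, other count filters, the title number or sex as covariate, only the females, limma on log2(TPM + 1), log2(TPM + 0.1) and log2(FPKM + 1), a loess offset (span 0.3) for each library's trend with length and GC, and leaving out libraries. Leaving out a WT library in the test of sex was chosen after seeing the data. Where 1 WT library was left, it was assumed to vary like the others.

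The members, gene lists and alternatives were chosen with earlier results of these data known. Named genes are the members, every called list gene and otherwise up to 2 genes per list with the smallest p, and the 3 genes with the most similar profile to the member of smallest p; further genes (Txn1, Arrdc4, the neighbours of Txnip) were picked with their values in view. Promoters came from RefSeq (GRCm38.p6), matched by symbol for 9 of 10 members.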

Additional observations from a re-analysis of the deposited data

Results flagged for a closer look

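Txnip had a db/db effect that differed between the sexes by a test of the difference itself: male minus female was -1.42 on the log2 scale. The db/db females lay at 766 and 730 CPM against 292 CPM in the WT female. The male db/db library lay at 412 CPM against 430 CPM in the WT male. Each arm but the db/db females is a single library, so the spread between males of a genotype was not measured.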

How the results depend on the processing

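Of 210 alternative values of the members' log2 fold changes and tests, 178 kept their direction and side of the threshold, 20 turned sign, 9 passed the threshold newly and 3 lost it. Over all genes 129 were called; the count was 238 with DESeq2, 256 without the count filter, 832 with a sex term, 984 in females alone, 82 with log2(TPM + 1), 8 with log2(TPM + 0.1), 424 with sex and the length offset, 433 in db/db females against the WT male, and 25 (without the WT female) to 240 (without the db/db male) on leaving out 1 library, with 68 without the WT male and 43 without db/db female 1. The split of 84 higher and 45 lower became 59 and 85 with library totals, 36 and 46 with log2(TPM + 1), 4 and 4 with log2(TPM + 0.1) and 48 and 57 with log2(FPKM + 1); the median of all genes was then -0.19, -0.24, -0.28 and -0.15.

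With the title number as a replicate block 80 genes and 0 members were called. Over 12540 genes the differences between numbers 1 and 2 correlated by -0.13 between genotypes. In WT number 1 was the female and number 2 the male, whereas the db/db male shared number 1 with a female. Number and sex are thus mixed, and the correlation cannot say whether the numbers pair the samples.

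Called members numbered 0, but 1 with DESeq2, 2 with a sex term, 4 in females alone, 1 in db/db females against the WT male, and 0 to 1 on leaving out 1 library. For sex the count of 1 became 2 with DESeq2, 0 with library totals, 0 with the length offset, and 0 to 4 on leaving out 1 library. No leave-one-out fit of the interaction was possible, since no residual degree of freedom or no sex pair would remain.

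The causes of the 20 sign turns were not tested. Sod2 was -0.022 with library totals, -0.13 with log2(TPM + 1), -0.13 with log2(TPM + 0.1) and -0.027 with log2(FPKM + 1). Cat was -0.13, -0.13 and -0.023 on those 3 scales. Hmox1 was -0.013 with library totals, -0.14, -0.16 and -0.048 on the same scales, and -0.069 with the offset and sex. Gpx3 was 0.032 with sex as a covariate, Gpx4, at 0.35 with all libraries, -0.12 in db/db females against the WT male, and Txnrd1 0.036 in females alone and 0.13 in that comparison. On leaving out 1 library Gpx3 ran from -0.16 to 0.13, Txnrd1 from -0.21 to 0.078 and Hmox1 from -0.056 to 0.34. Depth limits Hmox1, with 62 to 147 counts, more than the other members.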
